A study of Mus musculus with 4 samples.

Results

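Dendritic epidermal T cells (DETC) were examined in single-cell RNA libraries of mouse hindpaw leukocytes. CD45+ cells were sorted from the digested hindpaws of male mice aged 12 or 21 weeks, from Lepr db/db mice (DB), which lack a working leptin receptor and develop obesity and type 2 diabetes, and from their Lepr WT/WT littermates (WT). All mice came from a C57BLKS/J stock. Each condition was 1 library of cells pooled from 2 to 3 mice, so no difference between conditions has a replicate check, and every interval between conditions covers counting error only. DETC were taken from all 4 libraries by their transcripts. A barcode with at least 200 detected genes and at most 10% mitochondrial unique molecular identifiers (UMIs) was a member if it held at least 1 UMI of Cd3e, at least 1 of Cd7 or Trat1 and at least 1 of Fermt2 or Col27a1, no UMI of Cd163l1 or Foxp3, and fewer than 5 UMIs of C1qa, C1qb and C1qc together. This rule found 132 cells among 27800 barcodes kept.

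DETC are γδ T cells that settle in mouse epidermis from the fetal thymus and stay there as a sparse network of branched cells among the keratinocytes. Nearly all of them carry the same T cell receptor, a γ chain built from the variable segment Tcrg-V5 joined to a δ chain built from Trdv4. They are known for sensing stressed or wounded keratinocytes, for NK-type receptors such as NKG2D (Klrk1), for retention by integrin αE (Itgae) and E-cadherin, and for growth factors that help close wounds. Dermal γδ T cells, their closest relatives in skin, mostly use other variable segments and make interleukin-17. The rule genes are a part of the CD3 complex (Cd3e), a surface protein of T and NK cells (Cd7), an adaptor that steadies the receptor at the membrane (Trat1), the integrin activator kindlin-2 (Fermt2) and a fibrillar collagen (Col27a1).

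The variable segments that set epidermal apart from dermal γδ T cells are shown because they bear on the label of the members and because the rule did not use them. Both lie on chromosome 13 in the γ receptor locus, Tcrg-V5 at chr13:19192428-19192725 and Tcrg-V6 at chr13:19190632-19190929 of GRCm38, plus strand. The sequences are the coding part of the second exon of each segment in GENCODE vM21, and capitals mark the end of the segment from the codon of the conserved cysteine that opens the third hypervariable loop (peptide CACWD in both).
Tcrg-V5: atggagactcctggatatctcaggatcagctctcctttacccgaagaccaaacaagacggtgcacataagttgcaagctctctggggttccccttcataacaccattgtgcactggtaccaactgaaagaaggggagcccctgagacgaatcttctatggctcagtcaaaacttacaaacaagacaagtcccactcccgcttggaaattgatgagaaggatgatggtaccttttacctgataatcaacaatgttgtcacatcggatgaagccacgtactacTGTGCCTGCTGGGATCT
Tcrg-V6: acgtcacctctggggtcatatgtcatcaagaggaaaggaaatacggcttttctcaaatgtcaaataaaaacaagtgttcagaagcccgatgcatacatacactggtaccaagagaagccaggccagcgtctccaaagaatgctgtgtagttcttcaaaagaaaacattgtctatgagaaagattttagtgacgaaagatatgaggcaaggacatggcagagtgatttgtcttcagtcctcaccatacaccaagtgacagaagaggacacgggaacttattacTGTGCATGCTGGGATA
The segments were identical at 148 of 310 columns of their alignment (47.7%), with 138 mismatches and 24 gaps. The libraries were primed from the 3′ end of the transcript, while the variable segment lies near its 5′ end.

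The 12-week libraries held 25 (WT) and 71 (DB) members. The 21-week libraries held fewer, 12 in WT and 24 in DB. Values for the 4 libraries are given in this order from here on. They made up 0.474% of the 5271 barcodes kept (exact Clopper-Pearson 95% interval 0.307 to 0.699%), 1.08% of 6552 (0.847 to 1.36%), 0.165% of 7270 (0.0853 to 0.288%) and 0.276% of 8707 (0.177 to 0.410%). At 12 weeks the share in DB lay above that in WT with no overlap of the intervals, and at 21 weeks the intervals overlapped. Of the cells with a Cd3e UMI the members were 2.79, 3.99, 0.660 and 1.02%. Both shares were lower in the 21-week library of each genotype. All shares are of CD45+ cells that passed the sort and the digestion, and how completely these released cells from epidermis was not measured.

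**Figure D1:**
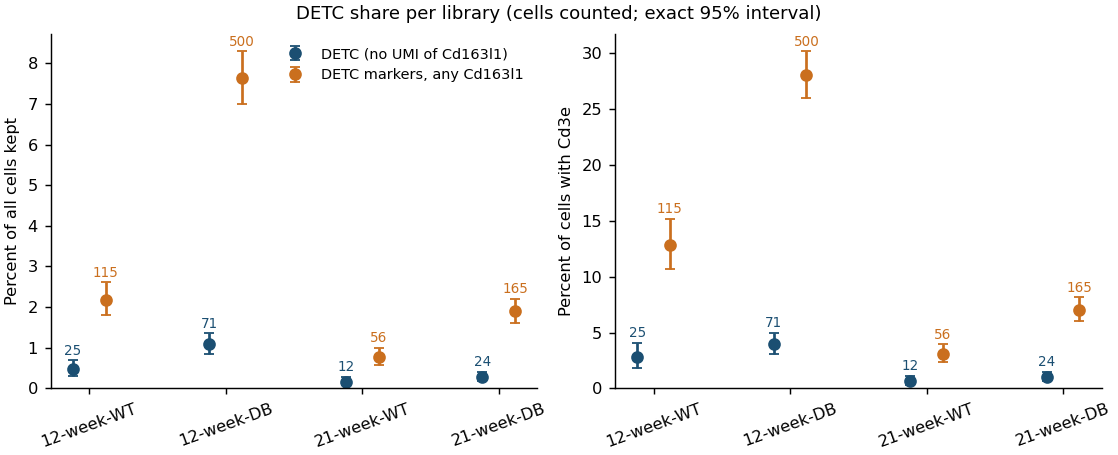
Share of DETC in each library with exact 95% intervals, in percent of all barcodes kept (left) and of the cells with a Cd3e UMI (right). Members of the rule and the wider set without the limit on Cd163l1 are drawn in separate colours, and in both sets 12-week-DB had the highest share and 21-week-WT the lowest.

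The limit on Cd163l1, which encodes the scavenger receptor SCART1 of γδ T cells, decided most of the membership. Before it, 836 cells met every other condition, 115, 500, 56 and 165 per library, and 704 of them held a Cd163l1 UMI. The wider set of 836 made up 2.18, 7.63, 0.770 and 1.90% of barcodes kept and 12.8, 28.1, 3.08 and 7.04% of cells with Cd3e. The order of the libraries was the same with and without the limit.

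Cells kept out by that limit outnumbered the members in every library. With exactly 1 Cd163l1 UMI there were 26, 86, 8 and 33 cells, and with 2 or more 64, 343, 36 and 108 cells. Fermt2 stood at 841, 616, 499 and 758 counts per 1000000 UMIs (CPM) in the members and at 832, 683, 905 and 1049 CPM in the cells with 1 Cd163l1 UMI. In the cells with at least 2 such UMIs the Cd163l1 level itself was 629, 647, 482 and 703 CPM, and the members held a median of 4397, 4585, 5501 and 3991 UMIs. At the other limit, the 81, 181, 302 and 225 cells without a UMI of Fermt2 or Col27a1 but otherwise within the rule were unlike the members: a Trdc UMI was found in 13, 16, 37 and 23 of them. Among members with a single UMI of Fermt2 or Col27a1, Trdc was detected in 2 of 3, 7 of 11, 0 of 2 and 1 of 2. These values describe the rule's edge and carry no test.

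Total UMIs ran from 47851794 to 69626521 per library, with 5998 to 9124 barcodes. The members' UMIs summed to 120031, 373623, 86208 and 123993. Counted across libraries, 38 barcode sequences were shared by the 12-week libraries, 146 by the 21-week libraries and 5 to 18 by the other pairs, and none was a member. A doublet score marked 1, 5, 2 and 4 members. The members' mitochondrial UMIs were 4.78, 3.16, 4.91 and 2.03% of their total.

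Markers of other cells differed in the members by cell type. The 5 NK cell markers together summed to 225, 179, 209 and 48.4 CPM, against 125, 128, 85.5 and 90.1 CPM in dermal γδ T cells. Of these 5, Ncr1 and Eomes were at 0 in every library. The 5 αβ T cell markers summed to 875, 950, 1160 and 927 CPM, against 775, 841, 767 and 974 CPM in dermal γδ T cells. The summed level of 5 keratinocyte markers was 49.99, 74.9, 34.8 and 24.2 CPM, and that of 5 fibroblast markers, cells that also make Fermt2 and Col27a1, was 8.33, 8.03, 0 and 0 CPM. Macrophage markers summed to 267, 249, 81.2 and 226 CPM, of which C1qa, C1qb and C1qc were limited by the rule. Markers of group 2 innate lymphoid cells (ILC2) were not low: all 5 together summed to 4899, 3469, 3526 and 3976 CPM, above the 1066 to 1905 CPM of dermal γδ T cells, and were found in 24 of 25, 71 of 71, 12 of 12 and 24 of 24 members. Most of this sum was Ctla2a at 4507, 2738, 3306 and 3016 CPM, while Gata3 was at 108, 356, 69.6 and 209.7 CPM and Hlf at 0, 190.0, 34.8 and 129 CPM, against 825 to 1058 CPM and 525 to 852 CPM in cells gated as ILC2. The part of ILC2 RNA in the results was not tested. Mast cell markers summed to 1075, 37.5, 0 and 202 CPM, and a single cell held 96.9% of those UMIs in 12-week-WT. Markers of type 2 conventional dendritic cells, which are MHC class II genes for the most part, summed to 1075, 3239, 21297 and 80.6 CPM, and in 21-week-WT 1 cell held 87.0% of them and 2 cells 98.3%. Markers of Langerhans cells, which include Cd74, summed to 542, 1413, 10428 and 113 CPM, and their defining gene Cd207 had 1 UMI in 12-week-DB and 0 in the other libraries. Between conditions, each gene was therefore also compared without the cell that held the most of its UMIs in each library. Leaving out 1 cell tends to take a larger share of a gene's UMIs from a library with few members. Such ratios therefore lean toward the library with more members. At 12 weeks the counts past 2-fold went from 106 higher and 27 lower in DB to 189 and 18.

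The receptor genes, which were not used by the rule apart from Cd3e, were those of γδ T cells. Trdc, the constant part of the δ chain, was detected in 92%, 91.5%, 83.3% and 91.7% of the members, against 3.34 to 4.41% of macrophages, which should lack it and had higher median depths of 9209.5 to 10708 UMIs. Trdv4 was detected in 80%, 70.4%, 83.3% and 79.2% of members. Only 0, 4, 1 and 1 members had Trac, the α chain constant gene, without Trdc. A further 3, 12, 0 and 4 members held both Trac and Trdc, and 2, 2, 1 and 1 held neither.

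Tcrg-V5 was found in few members and in none of the macrophages. It had a UMI in 6 of 25, 9 of 71, 2 of 12 and 6 of 24 members, which is 24%, 12.7%, 16.7% and 25%. In dermal γδ T cells, here all cells with Cd3e and Cd163l1 but without Foxp3 (424, 925, 838 and 1221 cells), the shares were 5.66%, 10.1%, 2.51% and 7.78%. This class includes cells with the members' markers and a Cd163l1 UMI. In the wider set without the limit on Cd163l1, which holds both them and the members, Tcrg-V5 was in 22 of 115, 83 of 500, 9 of 56 and 29 of 165 cells. The dermal shares are thus partly those of cells with epidermal markers. With every cell thinned to 2000 UMIs, before the rule was applied, Tcrg-V5 was seen in 7.55%, 8.44%, 5.88% and 7.84% of 53, 154, 17 and 51 members and in 3.61%, 4.78%, 0.282% and 3.43% of dermal γδ T cells; thinning also removed Cd163l1 UMIs and so let more cells in. Tcrg-V6, by contrast, had a UMI in 0, 1, 0 and 0 members and in 20.5%, 14.6%, 13.1% and 32.5% of dermal γδ T cells. The levels of the δ segment Trdv4 overlapped between these classes, at 458, 449.7, 336 and 895 CPM in members and 434, 496, 413 and 800.3 CPM in dermal γδ T cells. The dermal levels again include the Cd163l1-positive cells with the members' markers.

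The receptor genes of the label were thus present, Tcrg-V5 in a minority of members, and the members are the Cd163l1-free minority of the cells with these markers. Cd4 was detected in 0, 4, 1 and 0 members and Cd8a in 1, 2, 1 and 0. No Il4 UMI was present in any member, and a count of 0 allows a level of up to 4.26 CPM over the 703855 UMIs of all members.

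What sets DETC apart was then tested against 3 classes of lymphocyte in the same libraries: the dermal γδ T cells, αβ T cells (166, 313, 453 and 397 cells with Cd3e and Trac but no Trdc, Cd163l1, Foxp3, Fermt2 or Col27a1) and NK cells (72, 71, 91 and 65 cells with Ncr1 and neither Cd3e nor Trac). The rule's limit on C1qa, C1qb and C1qc also applied to these 3 classes. UMIs were summed per class and library, and the sums were compared by the quasi-likelihood test of edgeR, in which each library formed a block; the 4 conditions served as the replicates, so a call marks a difference between classes set against its spread over conditions. Genes used by any gate were left out, although genes that vary along with them were not. Of 8834 genes tested, 871 were higher and 768 lower in DETC than in dermal γδ T cells at a Benjamini-Hochberg adjusted p under 0.05 (9.86% and 8.69% of all genes tested). Against αβ T cells 1145 were higher and 991 lower (13% and 11.2%), and against NK cells 1046 and 935 (11.8% and 10.6%). The dermal class holds the 704 cells with epidermal markers and Cd163l1. With all dermal cells that held a UMI of Fermt2 or Col27a1 left out, the calls against it rose from 1639 to 2518. The median log2 difference over all genes was -0.07, -0.13 and -0.12 against the 3 classes.

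**Figure D2:**
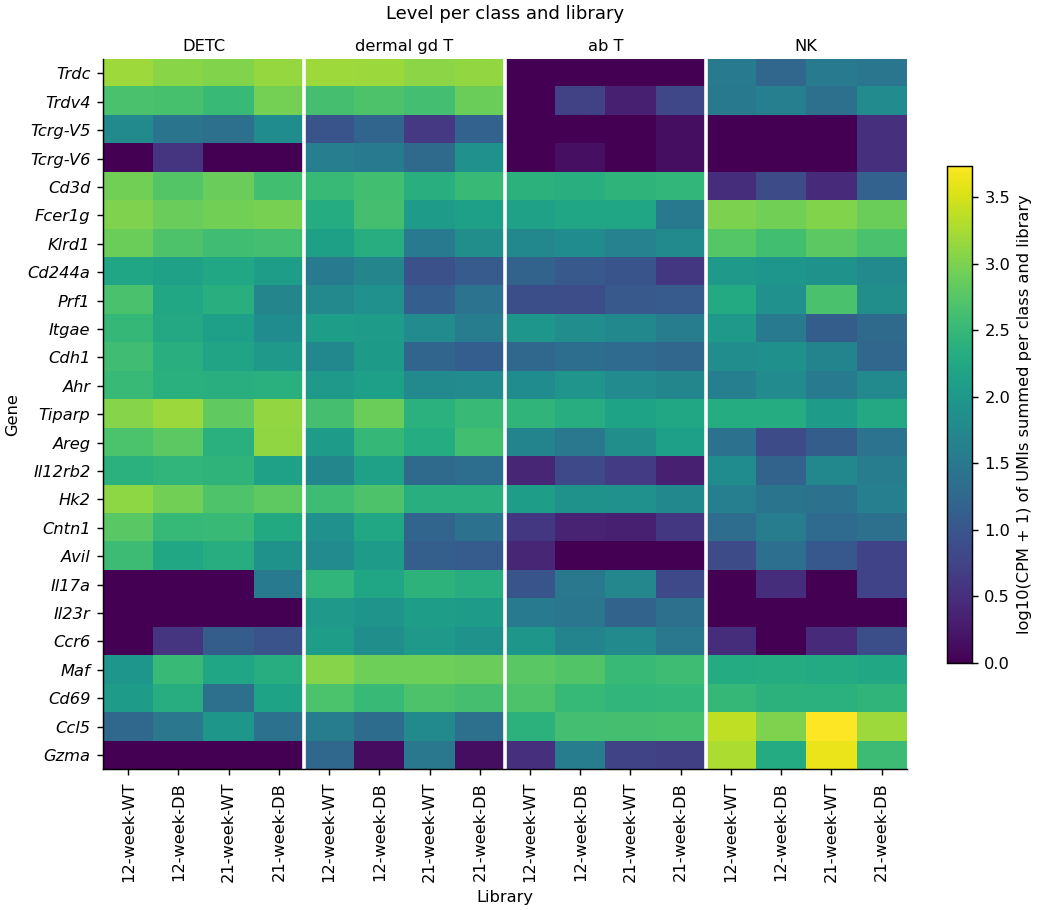
Level of the named genes, as log10(CPM + 1) of UMIs summed per class and library, for DETC and for dermal γδ T, αβ T and NK cells in each of the 4 libraries. Columns within a class look alike, with Tcrg-V5, Cntn1 and Hk2 highest in DETC, Il17a, Il23r and Ccr6 highest in dermal γδ T cells and Gzma highest in NK cells.

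Among γδ receptor genes, Tcrg-V5 was higher and Tcrg-V6 and Trgv2 were lower in DETC than in dermal γδ T cells. Tcrg-V5 stood at 58.3, 26.8, 23.2 and 64.5 CPM in DETC and at 3.22 to 15.7 CPM in dermal γδ T cells, a log2 difference of 1.86 ± 0.43 SE, adjusted p = 0.00504. Every DETC sum lay above every dermal sum, and the call was lost under 2 alternative settings. Cells with the same markers and 2 or more Cd163l1 UMIs, which count as dermal here, had Tcrg-V5 in 11 of 64, 55 of 343, 5 of 36 and 17 of 108, a share above the members' in 12-week-DB and below it in the other libraries. Tcrg-V6 was lower by -4.75 ± 0.67 (adjusted p = 0.000156) and Trgv2 by -1.65 ± 0.39 (adjusted p = 0.00838). In all, of 7 γδ receptor genes tested 1 was higher and 2 lower than in dermal γδ T cells, 4 and 0 against αβ T cells and 6 and 0 against NK cells. The constant genes Tcrg-C1 and Tcrg-C2 are near-identical, so their reads may have been split between them and their values are uncertain.

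Part of the signalling side of the receptor was higher than in dermal γδ T cells. Of 14 genes of the CD3 complex and proximal signalling, 6 were higher and 0 lower against dermal γδ T cells, 4 and 3 against αβ T cells, and 9 and 1 against NK cells. Cd3g, a CD3 subunit, stood at 1766, 1063, 1253 and 1000.1 CPM in DETC and at 582 to 882 CPM in dermal γδ T cells, a log2 difference of 0.74 ± 0.24 SE, adjusted p = 0.04. Cd3d differed by 0.95 ± 0.23 (adjusted p = 0.00681). Lck, the kinase that first phosphorylates the CD3 chains, differed by 1.81 ± 0.29 (adjusted p = 0.000438). Cd5 and Cd6, receptors that dampen this signal, were lower than in αβ T cells by -2.28 ± 0.52 (adjusted p = 0.00409) and -2.23 ± 0.34 (adjusted p = 7.84e-05). The calls for Cd3g and Cd3d against dermal γδ T cells were lost under 5 and 2 of the alternative settings.

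Adhesion to keratinocytes was represented by its known pair. E-cadherin (Cdh1), which joins epidermal cells to each other, stood at 392, 217, 151 and 105 CPM in DETC, with 12.1 to 107 CPM in dermal γδ T cells, 16 to 21.6 CPM in αβ T cells and 16.3 to 75.3 CPM in NK cells. The log2 difference was 2.31 ± 0.40 SE, adjusted p = 0.00066 against dermal γδ T cells and 3.14 ± 0.45 SE, adjusted p = 3.95e-05 against αβ T cells. Itgae, the integrin subunit that binds E-cadherin, stood at 308, 182, 128 and 64.5 CPM and was higher by 0.995 ± 0.26 SE, adjusted p = 0.0107, than in dermal γδ T cells. Both genes were highest in 12-week-WT and lowest in 21-week-DB. Cdh1 was the only gene of 15 on the adhesion list that was higher than in dermal γδ T cells, and none was lower. Against αβ T cells 1 was higher and 4 were lower, and against NK cells 2 and 8.

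Most homing genes that passed were lower than in the other T cells. Of 13 homing genes tested, 1 was higher (Itgae) and 5 were lower than in dermal γδ T cells, and 1 was higher and 7 were lower than in αβ T cells. Against NK cells 4 were higher (Ccr4, Cxcr6, Itgae and Itgb7) and 5 lower. The chemokine receptor Cxcr6 was at 267, 401, 244 and 169 CPM in DETC and 638, 546, 496 and 579.8 CPM in dermal γδ T cells, a difference of -1.03 ± 0.22 SE, adjusted p = 0.00312. Cd69, which holds T cells in tissue, was lower by -1.57 ± 0.29 (adjusted p = 0.00114) against dermal γδ T cells and by -1.28 ± 0.30 (adjusted p = 0.00341) against αβ T cells. S1pr1, the exit receptor toward lymph and blood, was lower than in αβ T cells by -3.31 ± 0.48 (adjusted p = 4.7e-05). The epidermal homing receptors Ccr10 and Gpr15 had too few UMIs to be tested, at no more than 2.68 and 13.4 CPM in any library.

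NK-type receptors were next. Of 17 tested, 6 were higher and 3 lower in DETC than in dermal γδ T cells and 8 and 4 against αβ T cells, while 0 were higher and 10 lower than in NK cells. Fcer1g, a signalling adaptor for activating receptors, stood at 1033, 771, 858 and 944 CPM in DETC, at 113 to 425 CPM in dermal γδ T cells and at 782 to 1060.0 CPM in NK cells. It was higher than in dermal γδ T cells by 2.14 ± 0.35 SE, adjusted p = 0.000418, and its difference from NK cells was -0.17 ± 0.34 SE, adjusted p = 0.785. Klrd1 (CD94), the partner chain of NKG2 receptors, stood at 783, 484, 383 and 411 CPM, with differences of 2.28 ± 0.36 SE, adjusted p = 0.000326, from dermal γδ T cells and -0.20 ± 0.36 SE, adjusted p = 0.749, from NK cells. Cd244a, a receptor of the SLAM family, was higher by 2.58 ± 0.39 against dermal γδ T cells (adjusted p = 0.000242) and 3.87 ± 0.45 against αβ T cells (adjusted p = 4.24e-06). Klrk1, which encodes NKG2D, was higher than in αβ T cells by 1.25 ± 0.24 (adjusted p = 0.000673), lower than in NK cells by -0.91 ± 0.23 (adjusted p = 0.00751), and its difference from dermal γδ T cells of 0.66 ± 0.23 did not pass (adjusted p = 0.0528). Jaml, the receptor through which keratinocytes costimulate DETC, was lower than in dermal γδ T cells by -1.52 ± 0.29 (adjusted p = 0.00118), at 117, 85.6, 162 and 161 CPM. The semaphorin Sema4d, known in DETC for the rounding of activated cells, was lower too, by -1.49 ± 0.31 (adjusted p = 0.0025). Klrc1 and Klrc2 are near copies of each other, and their separate values are uncertain.

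Cytotoxic genes were a partial set. Perforin (Prf1) stood at 458, 169, 220.4 and 48.4 CPM, higher than in dermal γδ T cells by 2.25 ± 0.62 SE, adjusted p = 0.0158, and its difference from NK cells was 0.01 ± 0.64 SE, adjusted p = 0.997. Nkg7 and Ctsw, a granule protein and a cathepsin of killer cells, were higher than in dermal γδ T cells by 1.95 ± 0.37 (adjusted p = 0.00119) and 1.90 ± 0.32 (adjusted p = 0.000495). The granzymes did not follow. Gzma had no UMI in any member and was at least 413-fold lower than in NK cells, taking 3 UMIs over all members as the floor, and Gzmb stood at 50, 32.1, 0 and 40.3 CPM with a difference of -2.01 ± 0.59 SE, adjusted p = 0.0184, from NK cells. Of 11 cytotoxic genes 3 were higher and 1 lower than in dermal γδ T cells, and 0 were higher and 7 lower than in NK cells.

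**Figure D3:**
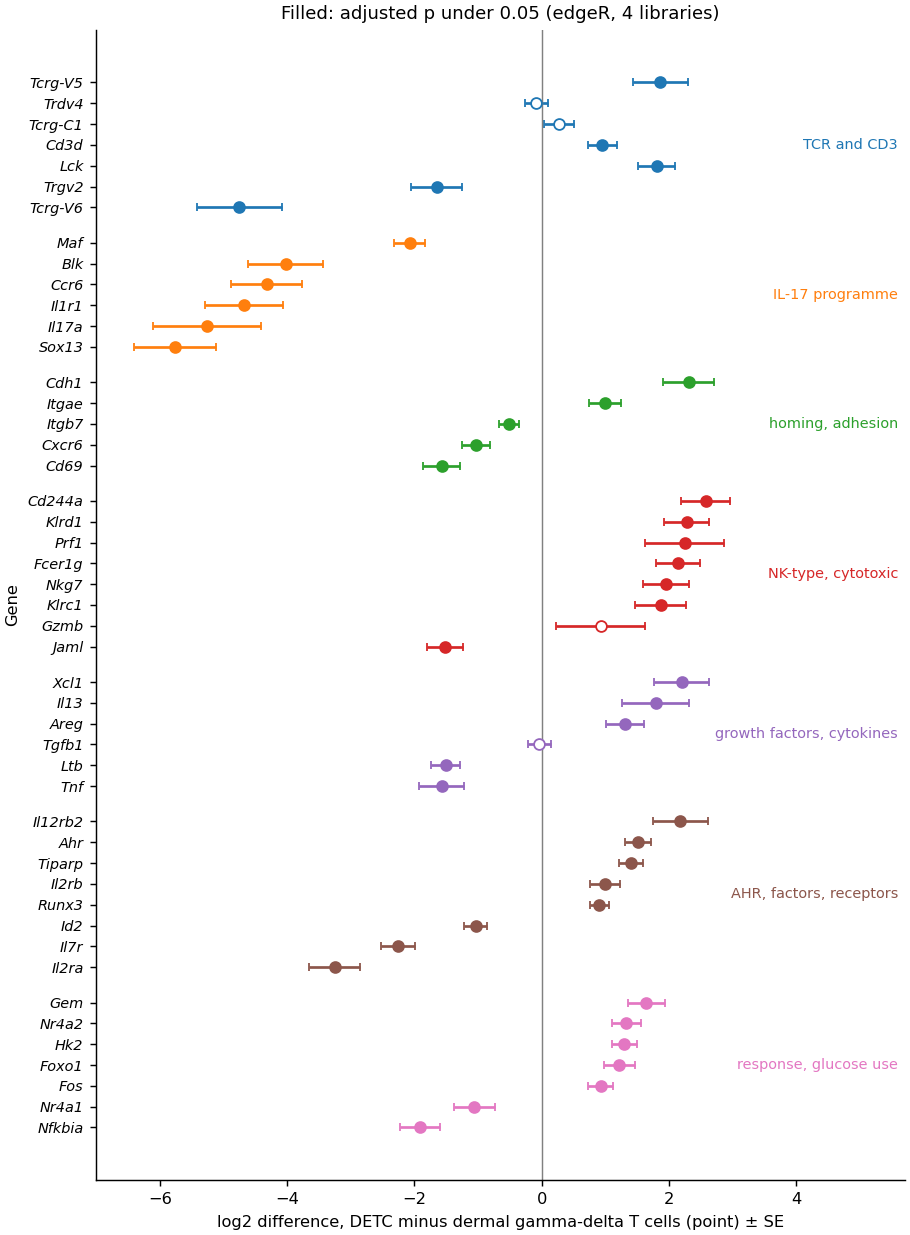
Log2 difference between DETC and dermal γδ T cells for selected genes of the lists, grouped by role, with the standard error; filled points passed an adjusted p of 0.05 and open points did not. Cd244a at 2.58, Cdh1 at 2.31 and Klrd1 at 2.28 lie farthest to the right among the genes drawn, and the interleukin-17 genes lie to the left, at -5.26 for Il17a and -5.77 for Sox13.

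The interleukin-17 programme of dermal γδ T cells was low in DETC. Of 11 genes tested 0 were higher and 10 were lower than in dermal γδ T cells, 7 were lower than in αβ T cells, and none passed in either direction against NK cells. Il17a itself was at 0, 0, 0 and 32.3 CPM in DETC and 284, 161, 264 and 214 CPM in dermal γδ T cells (-5.26 ± 0.85 SE, adjusted p = 0.000423). The sole library with Il17a in members was 21-week-DB. Il23r and Il17f had no UMI in any member, which places them at least 25.1-fold and 13.8-fold below dermal γδ T cells. Sox13, Blk and Maf, which set this programme during thymic development, were lower by -5.77 ± 0.65 (adjusted p = 3.89e-05), -4.03 ± 0.59 (adjusted p = 0.000213) and -2.08 ± 0.25 (adjusted p = 5.46e-05). The chemokine receptor Ccr6 was lower by -4.32 ± 0.55 (adjusted p = 9.19e-05).

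Other transcription factors fell on both sides. Of 18 tested, 3 were higher and 6 lower than in dermal γδ T cells. Runx3, needed for CD103+ epidermal T cells, was higher against all 3 classes, by 0.91 ± 0.15 (adjusted p = 0.000441), 1.67 ± 0.15 (adjusted p = 3.55e-07) and 0.49 ± 0.15 (adjusted p = 0.0256), and the call against NK cells was lost under 6 alternative settings. Nfil3 stood at 392, 332, 92.8 and 339 CPM and was higher by 0.79 ± 0.23 (adjusted p = 0.0211) than in dermal γδ T cells, a call lost under 4 alternative settings. Sox4 was higher as well, by 2.02 ± 0.58 (adjusted p = 0.0211). Id2, Rora and Zbtb16 were lower, with Id2 at -1.04 ± 0.18 (adjusted p = 0.000604).

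The aryl hydrocarbon receptor (AHR), a sensor of small molecules that skin γδ T cells need for their upkeep, was tested with its targets. Ahr stood at 342, 238, 220.4 and 234 CPM in DETC and at 60.3 to 127 CPM in dermal γδ T cells, 51.1 to 87.6 CPM in αβ T cells and 32.5 to 63.1 CPM in NK cells, with no overlap between DETC and any class. The differences were 1.51 ± 0.20 SE, adjusted p = 0.000114, 1.79 ± 0.21 SE, adjusted p = 4.65e-06, and 2.28 ± 0.24 SE, adjusted p = 2.53e-06. Tiparp, a target gene whose enzyme feeds back on AHR, stood at 1133, 1493, 661 and 1347 CPM and was higher by 1.40 ± 0.18 (adjusted p = 9.68e-05), 2.38 ± 0.19 (adjusted p = 7.19e-08) and 2.62 ± 0.20 (adjusted p = 7.6e-08). The AHR repressor Ahrr, another target, was at 58.3, 29.4, 0 and 16.1 CPM, higher than in αβ T cells by 3.60 ± 0.67 SE, adjusted p = 0.000905, and at least 18.2-fold higher than in NK cells, which had no UMI. Against dermal γδ T cells its difference of 1.32 ± 0.55 did not pass (adjusted p = 0.113). Cyp1a1 and Cyp1b1, the best known targets, had no UMI in members. Of 4 genes of this list tested, 2 were higher than in dermal γδ T cells and 3 than in αβ T and NK cells, with 0 lower.

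The promoters of the targets that were higher are shown with the core of the AHR response element, GCGTG on either strand, in capitals. They are from RefSeq on GRCm38.p6, 250 bases before to 50 after the start, for Tiparp at chr3:65528197-65528496 (plus strand) and for Ahrr at chr13:74292282-74292581 (minus strand).
Tiparp: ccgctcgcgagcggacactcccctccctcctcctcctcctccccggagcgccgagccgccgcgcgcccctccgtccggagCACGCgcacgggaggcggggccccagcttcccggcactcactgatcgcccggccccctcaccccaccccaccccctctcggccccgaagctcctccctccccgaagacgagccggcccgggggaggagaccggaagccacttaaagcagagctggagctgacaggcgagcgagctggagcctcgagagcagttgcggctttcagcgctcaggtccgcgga
Ahrr: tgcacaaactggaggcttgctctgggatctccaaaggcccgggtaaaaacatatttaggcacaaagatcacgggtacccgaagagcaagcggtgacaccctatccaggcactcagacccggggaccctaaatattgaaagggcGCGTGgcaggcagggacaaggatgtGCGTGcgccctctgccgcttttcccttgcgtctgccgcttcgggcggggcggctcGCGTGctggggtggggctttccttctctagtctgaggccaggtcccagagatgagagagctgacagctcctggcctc
The Tiparp window held 1 match (on the minus strand, so read as its reverse complement) and the Ahrr window 3, and 10639 of 32851 promoters of this length (32.4%) held at least 1. A match to these letters is common and describes the window only.

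Secreted factors passed in both directions. Of the wound-repair growth factors, Fgf7, Fgf10 and Igf1 had no UMI in any member. Amphiregulin (Areg), a ligand of the epidermal growth factor receptor, was detected in 32%, 46.5%, 41.7% and 75% of members against 5.86 to 10.1% of macrophages. Its level was 483, 616, 232 and 1298 CPM, higher than in dermal γδ T cells by 1.31 ± 0.31 SE, adjusted p = 0.00556, than in αβ T cells by 3.15 ± 0.34 SE, adjusted p = 1.82e-06, and than in NK cells by 5.15 ± 0.45 SE, adjusted p = 3.36e-07. Of 8 growth factors tested 1 was higher and 1 lower than in dermal γδ T cells. Of 16 cytokines and chemokines, 2 were higher and 6 lower, against 9.86% higher and 8.69% lower over all genes tested. The type 2 cytokine Il13 stood at 133, 77.6, 0 and 185 CPM and was found in 7, 9, 0 and 12 members, which is 28%, 12.7%, 0% and 50% against 1.51 to 4.6% of macrophages. It was higher than in dermal γδ T cells by 1.79 ± 0.53 SE, adjusted p = 0.0242, and this call was lost under 3 settings, as was that of Areg. Il13 is 1 of the 5 ILC2 markers given above. Xcl1, a chemokine for cross-presenting dendritic cells, was higher by 2.20 ± 0.43 (adjusted p = 0.0017). Tnf and Ltb were lower, by -1.57 ± 0.35 (adjusted p = 0.00448) and -1.51 ± 0.23 (adjusted p = 0.000278).

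Among receptors for cytokines, chains for interleukin-12 and interleukin-15 were higher and those for interleukin-7 and interleukin-2 alone were lower. Of 13 tested, 2 were higher and 6 lower than in dermal γδ T cells. Il12rb2, the signalling chain for interleukin-12, was at 242, 292, 267 and 137 CPM and higher by 2.18 ± 0.43 SE, adjusted p = 0.0017. Il2rb, the chain shared by the receptors of interleukin-2 and interleukin-15, was at 633, 913, 383 and 750.0 CPM and higher by 0.997 ± 0.23 SE, adjusted p = 0.00547. Il7r and Il2ra were lower by -2.26 ± 0.26 (adjusted p = 5.31e-05) and -3.25 ± 0.40 (adjusted p = 7.25e-05). Against NK cells the Il2rb difference was -0.64 ± 0.24 (adjusted p = 0.0595).

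Genes induced by receptor signals were split. Of 18 tested, 4 were higher and 3 lower than in dermal γδ T cells. Gem, a small GTPase, stood at 1599.6, 1528, 592 and 718 CPM and was higher by 1.64 ± 0.29 SE, adjusted p = 0.000758. Nr4a2 and Nr4a3, orphan nuclear receptors, were higher by 1.33 ± 0.23 (adjusted p = 0.000574) and 0.89 ± 0.20 (adjusted p = 0.00422), while their relative Nr4a1 was lower by -1.06 ± 0.32 (adjusted p = 0.0264, lost under 5 settings). Nfkbia, the inhibitor of NF-κB, was lower by -1.91 ± 0.32 (adjusted p = 0.000526). Fos was higher by 0.93 ± 0.20 (adjusted p = 0.00301). Digestion of tissue is known to induce such genes, and its part in these levels was not tested.

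In metabolism, hexokinase 2 stood out. Hk2, which traps glucose in the cell, stood at 1283, 862, 510.4 and 645 CPM in DETC, 218 to 498 CPM in dermal γδ T cells, 55.2 to 119 CPM in αβ T cells and 24.8 to 39.7 CPM in NK cells. It was higher by 1.30 ± 0.19 SE, adjusted p = 0.000213, 3.16 ± 0.21 SE, adjusted p = 1.1e-08, and 4.55 ± 0.26 SE, adjusted p = 3.66e-09. Foxo1, the transcription factor that insulin signals hold back, was higher against all 3 classes, by 1.22 ± 0.24 (adjusted p = 0.00197), 1.70 ± 0.25 (adjusted p = 5.67e-05) and 2.06 ± 0.28 (adjusted p = 3.63e-05). Igf1r, the receptor for insulin-like growth factor, was higher than in αβ T and NK cells by 1.50 ± 0.28 (adjusted p = 0.000562) and 1.82 ± 0.33 (adjusted p = 0.000471), and its difference from dermal γδ T cells was -0.52 ± 0.26 (adjusted p = 0.179). Of 15 genes of insulin, mTOR and glucose use, 2 were higher and 1 lower than in dermal γδ T cells. The glucose transporter Slc2a3 was the lower one, by -1.29 ± 0.36 (adjusted p = 0.0172).

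The remaining lists were compared with dermal γδ T cells and held 5 to 11 tested genes each. Of all genes tested, 9.86% were higher and 8.69% lower. Of 11 checkpoint and costimulation genes 4 were higher and 1 lower, with Cd96 at 1.28 ± 0.24 (adjusted p = 0.00133) and Cd28 at 2.03 ± 0.38 (adjusted p = 0.00119) among the higher and Pdcd1, which encodes PD-1, lower by -4.59 ± 0.85 (adjusted p = 0.00105). Against αβ T cells 7 of these were lower, Cd28 by -2.03 ± 0.33 (adjusted p = 0.000135). Of 6 interferon-stimulated genes 2 were higher, Isg15 by 1.91 ± 0.45 (adjusted p = 0.00582) and Oasl2 by 1.60 ± 0.52 (adjusted p = 0.0385). Of 11 glucocorticoid-responsive genes 3 were lower, with Ddit4 at -2.33 ± 0.28 (adjusted p = 7.2e-05). Of 11 cell cycle genes 1 was higher and 2 lower, and Top2a, a marker of dividing cells, was lower by -2.86 ± 0.80 (adjusted p = 0.0167); this call and that for Cd28 were each lost under 3 settings. Of 5 αβ receptor and coreceptor genes 2 were higher and 1 lower, and the higher ones, Cd4 and Cd8a, rest on the few members named above.

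The genes with the largest differences were mostly not on the lists. Cntn1, a contactin adhesion molecule better known from neurons, stood at 608, 313, 325 and 185 CPM and was higher by 2.50 ± 0.38 SE, adjusted p = 0.000278, than in dermal γδ T cells, 7.14 ± 0.57 SE, adjusted p = 7.19e-08, than in αβ T cells and 3.70 ± 0.51 SE, adjusted p = 3.96e-05, than in NK cells. Nap1l5, an imprinted gene of the nucleosome assembly family, stood at 91.6, 115, 162 and 339 CPM and was higher by 2.52 ± 0.39 (adjusted p = 0.000307). Mest, another imprinted gene, was higher by 2.20 ± 0.38 (adjusted p = 0.000585). The somatostatin receptor Sstr3 had the largest positive difference from dermal γδ T cells among called genes with at least 50 CPM and the same direction in every library, at 3.14 ± 0.51 (adjusted p = 0.000433). The adhesion receptor Adgrl2 was at 275, 276, 255 and 315 CPM, close across libraries, and the netrin receptor Unc5b at 342, 327, 151 and 64.5 CPM; they were higher by 2.31 ± 0.33 (adjusted p = 0.000176) and 1.98 ± 0.27 (adjusted p = 0.000133). Also higher were the actin-binding protein Avil (advillin) at 2.12 ± 0.39 (adjusted p = 0.000964), the GTPase Rhou at 2.25 ± 0.34 (adjusted p = 0.000272) and the GTPase-activating protein Dlc1 at 2.22 ± 0.33 (adjusted p = 0.000393). Zmat4, a zinc finger gene, had no UMI in αβ T and NK cells and was at least 362-fold and 71.1-fold higher in DETC.

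Comparing conditions, 1703 genes had at least 50 UMIs over the members of both 12-week libraries. At 2-fold or more, 106 were higher in DB and 27 lower (6.22% and 1.59%). At 21 weeks 626 genes could be compared and 115 were higher and 39 lower in DB (18.4% and 6.23%). With age, 21 of 595 genes were higher and 74 lower at 21 weeks in WT (3.53% and 12.4%), and in DB 77 of 1726 were higher and 208 lower (4.46% and 12.1%). These are counts past a fold with 1 library a side and not counts of changed genes. The median log2 ratio was 0.13 and 0.34 for DB against WT at 12 and 21 weeks, and scaling by it turned the counts to 82 higher and 42 lower at 12 weeks and to 64 and 68 at 21 weeks. The 4 contrasts share libraries. Headers of the deposited counts name Cell Ranger, the counting software, in version 5.0.0 for the 12-week and 6.0.0 for the 21-week libraries. In every comparison of ages, age and this version therefore cannot be told apart. In the wider set without the limit on Cd163l1, 253 of 7034 genes were higher and 85 lower in DB at 12 weeks (3.6% and 1.21%) and 237 of 3712 higher and 166 lower at 21 weeks (6.38% and 4.47%).

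In the 12-week libraries, DETC of DB mice had higher levels of several transcription factors. Of 10 such factors with enough UMIs 4 were past 2-fold higher (Gata3, Ikzf2, Maf and Rora) and 0 lower. Over all genes compared, 6.22% were higher and 1.59% lower. Gata3 is 1 of the 5 ILC2 markers given above. Hlf, another of them, ranked 2 by ratio among the named genes higher in DB at 12 weeks, with no UMI in the WT members. The sum of all 5 was 3469 CPM in DB and 4899 CPM in WT. Most of that sum was Ctla2a, so it says little of the other markers. The part of ILC2 RNA in these ratios was not tested. Rora, a nuclear receptor of tissue lymphocytes, was at 108, 412, 151 and 565 CPM, a ratio of 3.81 (95% interval 2.16 to 7.31) at 12 weeks and 3.74 (95% interval 2.05 to 7.38) at 21 weeks. It was higher in both DB libraries than in either WT library. The Cd163l1-positive cells with the same markers were closer together at 217, 266, 281 and 332 CPM, and in the wider set 0 of 12 factors passed 2-fold higher. Icos, a costimulatory receptor, stood at 33.3, 206, 23.2 and 161 CPM with a ratio of 6.18 (95% interval 2.32 to 23.3) at 12 weeks, though 48 of 77 of its UMIs in 12-week-DB came from 1 cell. Without the cell with the most UMIs in each library its log2 ratio was 1.63, and in the wider set it was 1.30. The chemokine receptor Cxcr4 was at 16.7, 158, 0 and 177 CPM, detected in 1, 14, 0 and 6 members, with a log2 ratio of 3.24 at 12 weeks and 2.04 without those cells. Htatsf1, a splicing factor, and Cd9, a tetraspanin, had 12-week ratios of 6.43 (95% interval 2.66 to 20.2) and 4.82 (95% interval 1.79 to 18.3); Cd9 was highest in 21-week-WT, where 1 cell held most of it. Trac was also higher, at 33.3, 131, 186 and 105 CPM.

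Perforin went the other way at 12 weeks. Prf1 was at 458, 169, 220.4 and 48.4 CPM, a ratio of 0.368 (95% interval 0.252 to 0.538) for DB against WT at 12 weeks, detected in 21 of 25 and 32 of 71 members, and without the top cells its log2 ratio was -1.50 as against -1.44. In the Cd163l1-positive cells it was at 292, 177, 137 and 181 CPM, highest in 12-week-WT as well. Scin, an actin-severing protein, was at 258, 109.7, 69.6 and 48.4 CPM (ratio 0.425 (95% interval 0.26 to 0.701)) and at 181, 140.2, 96.8 and 77.5 CPM in Cd163l1-positive cells. Klf2, a factor of circulating T cells, was at 367, 85.6, 81.2 and 72.6 CPM (ratio 0.234 (95% interval 0.143 to 0.377)) with 1 cell holding 22 of 44 UMIs in 12-week-WT. The adhesion protein Flrt3 and the transcription cofactor Cited2 had ratios of 0.372 (95% interval 0.244 to 0.571) and 0.382 (95% interval 0.295 to 0.496), and for Cited2 the log2 ratio without the top cells was -0.96, no longer past 2-fold.

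**Figure D4:**
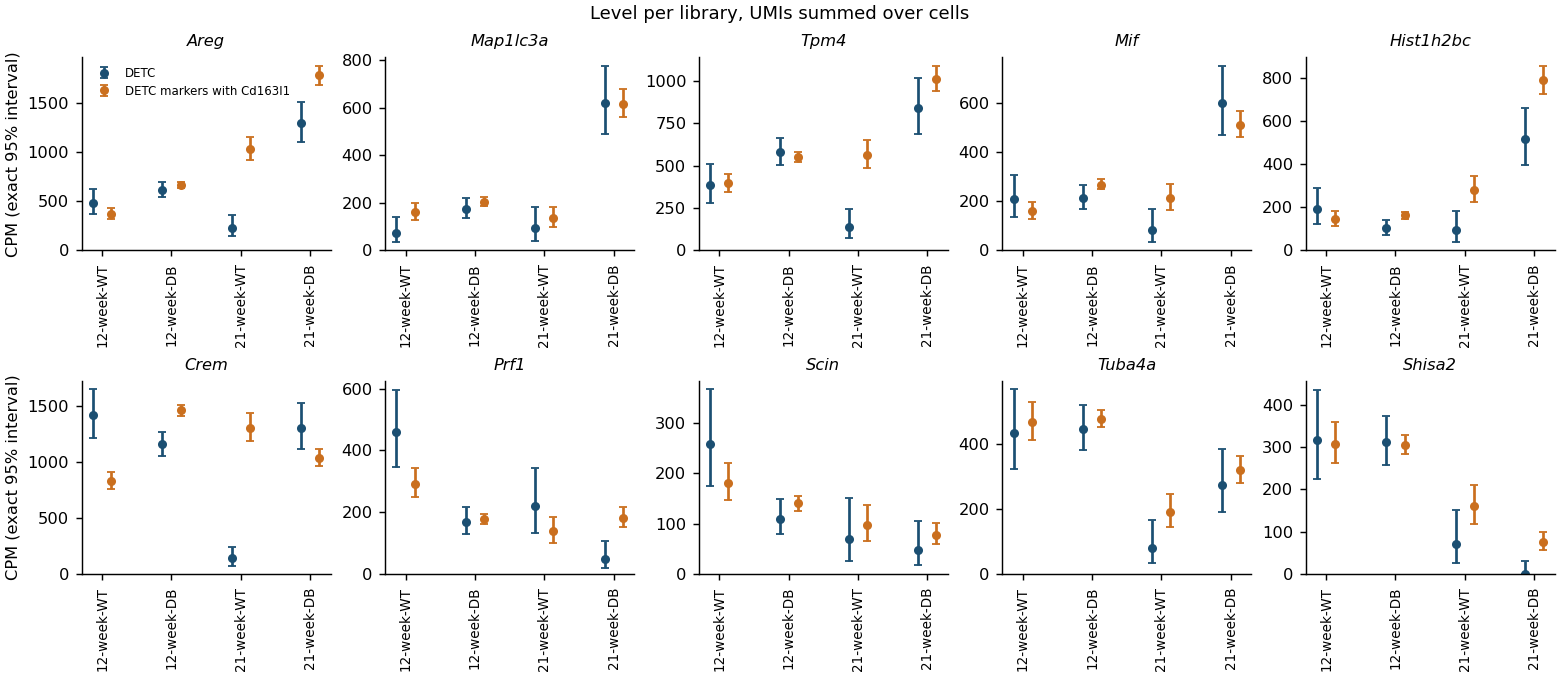
Level of named genes in CPM per library, with exact Poisson 95% intervals, in the members and in the Cd163l1-positive cells with the same markers. Prf1 is highest in 12-week-WT in both sets, and Areg and Map1lc3a are highest in 21-week-DB in both.

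In the 21-week libraries the members of DB mice held more Areg. Its level of 483, 616, 232 and 1298 CPM gave a ratio of 5.6 (95% interval 3.51 to 9.41) at 21 weeks, with UMIs in 5 of 12 members of 21-week-WT and 18 of 24 of 21-week-DB. The top cell held 39 of 161 UMIs in 21-week-DB, and without top cells the log2 ratio was 2.68 as against 2.48. Leaving out 1 of 12 members weighs more than 1 of 24 and can raise this ratio by itself. In Cd163l1-positive cells Areg was at 373, 662, 1034 and 1782 CPM, again highest in 21-week-DB, although the order of the other libraries differed and 21-week-WT was second. The wider set gave a log2 ratio of 0.99, under 2-fold.

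Some other genes with large 21-week ratios were likewise highest in 21-week-DB. Map1lc3a, which encodes an LC3 protein of autophagosomes, was at 75, 174, 92.8 and 621 CPM in members (ratio 6.69 (95% interval 3.23 to 16.1) at 21 weeks) and at 162, 204, 137 and 617 CPM in Cd163l1-positive cells. Mif, a cytokine with enzyme activity, was at 208, 211, 81.2 and 597 CPM (ratio 7.35 (95% interval 3.39 to 18.9)) and at 158, 267, 212 and 510.5 CPM in Cd163l1-positive cells. Both sets put 21-week-DB above the other libraries for these genes. The histone gene Hist1h2bc was at 192, 102, 92.8 and 516 CPM and at 145, 162, 281 and 787 CPM, with the same library on top. Tropomyosin 4 (Tpm4) had a ratio of 6.03 (95% interval 3.31 to 12), and the cell cycle inhibitor Cdkn1a one of 5.21 (95% interval 2.97 to 9.87). With age in DB, Tcf7l2 and Lmo4, transcriptional regulators, were higher by ratios of 5.2 (95% interval 3 to 9.24) and 4.07 (95% interval 2.65 to 6.28), and the transcript BC031181 by 3.46 (95% interval 2.36 to 5.08). Lmo4 is among the ILC2 markers summed above. Of the others, Il13 was also higher in 21-week-DB than in 12-week-DB, while Gata3 and Hlf were lower. Over all barcodes kept, the marker sum was 1136 CPM in 12-week-DB and 2443 CPM in 21-week-DB. In members it was 3469 and 3976 CPM. The part of ILC2 RNA in the Lmo4 ratio was not tested. The mitochondrial gene mt-Nd3 was lowest in 21-week-DB, at 1058, 455, 708 and 145 CPM in members and 816, 498, 706 and 165 CPM in Cd163l1-positive cells, with a 21-week ratio of 0.205 (95% interval 0.114 to 0.352).

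The 12 members of 21-week-WT had lower levels of genes induced by cell activation. Of 11 early-response genes compared between WT ages, 9 were past 2-fold lower at 21 weeks (Dusp1, Fos, Fosb, Gem, Jun, Junb, Nfkbia, Nr4a2 and Nr4a3) and 0 higher. Over all genes compared, 12.4% were lower. The UMIs of these members summed to 86208, and to 58817 without the 2 called doublets. Every level of the members in this library was scaled by the first sum. In the wider set 0 of 14 early-response genes were lower past 2-fold. Crem, a cAMP-responsive regulator, was at 1416, 1156, 139 and 1307 CPM in members, so that the 21-week ratio of DB against WT was 9.39 (95% interval 5.23 to 18.5). In Cd163l1-positive cells it was at 833, 1460.1, 1305 and 1038 CPM, and the wider set put the WT age difference at a log2 ratio of 0.17 as against -3.35 in members. This library's low Crem level was thus found among the Cd163l1-free cells, in 6 of 12 members, and not among the others. Tuba4a and Fbxo30, a tubulin and a ubiquitin ligase subunit, were lower at 21 weeks in WT in both sets, at 433, 447, 81.2 and 274 CPM and 599.8, 380.1, 128 and 105 CPM in members and 467, 478, 190.5 and 319.6 CPM and 359.8, 384, 125 and 129 CPM in Cd163l1-positive cells. Their WT age ratios in members were 0.187 (95% interval 0.0718 to 0.414) and 0.213 (95% interval 0.102 to 0.404).

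With age in DB, 2 of 6 adhesion genes (Cdh1 and Itgal) and 2 of 5 homing genes (Itgae and Cxcr6) were past 2-fold lower and 0 higher, where 12.1% of all genes compared were lower. These lists are small, and in the wider set 5 of 12 adhesion genes, Cdh1 among them, and 0 of 8 homing genes were past 2-fold lower. Cdh1 had a ratio of 0.484 (95% interval 0.247 to 0.874) and Itgae one of 0.355 (95% interval 0.147 to 0.739) at 21 against 12 weeks. In Cd163l1-positive cells the levels were 283, 242, 222 and 85.8 CPM for Cdh1 and 296, 204, 240.4 and 120.4 CPM for Itgae. Shisa2, a membrane protein that holds back growth factor receptors, was at 317, 310.5, 69.6 and 0 CPM, so with no UMI in 21-week-DB its level there was at most 0.0779 of that at 12 weeks, taking 3 UMIs as the floor, and it was at 307, 305, 159 and 76.1 CPM in Cd163l1-positive cells. Itpripl2 had a ratio of 0.104 (95% interval 0.0123 to 0.393). The Cd3 and proximal signalling list had 2 of 10 genes past 2-fold lower with age in DB (Cd247 and Zap70) and 0 higher, against the 12.1% lower over all genes, and in the wider set Zap70 was not past 2-fold.

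Several of the largest ratios between conditions rested on few cells. Mcpt2, a mast cell protease, was at 866, 16.1, 0 and 32.3 CPM, and 103 of 104 UMIs in 12-week-WT lay in 1 cell; leaving out the top cells turned the 12-week log2 ratio from -5.75 to 0.35. The same cell type's Cma1 went from -6.28 to -3.66, with 1 UMI left in DB and 4 in WT. The MHC class II chaperone Cd74 was at 483, 1354, 10417 and 24.2 CPM, with 757 of 898 UMIs in 1 cell of 21-week-WT that was called a doublet. Its 21-week log2 ratio was -8.75 with that cell and -7.05 without the top cells, and H2-Aa followed with -8.26 and -5.83. A second such cell stayed in, since 2 cells held 98.3% of the UMIs of the dendritic cell markers in 21-week-WT. For Lyz2, a myeloid gene, the ratio of -2.28 became 0.07. The olfactory receptor gene Olfr655 had 65 of 66 UMIs in 1 cell of 21-week-DB, and Dync1i2 had 98 of 109. In contrast, the top cell held 9 of 74 UMIs of Mif and 17 of 77 of Map1lc3a in that library.

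**Figure D5:**
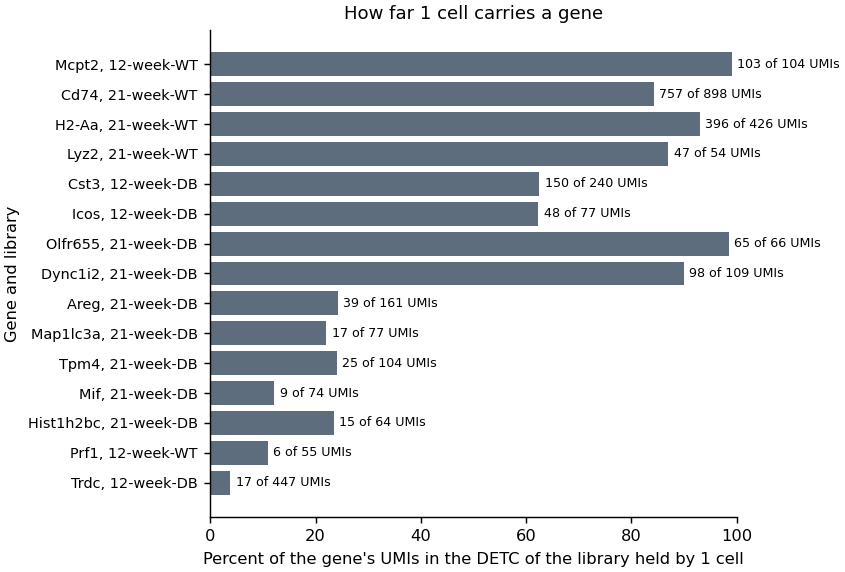
Percent of a gene's UMIs in the DETC of a library that 1 cell held, for named genes and libraries. Mcpt2 in 12-week-WT and Olfr655 in 21-week-DB lie near 100%, and Trdc in 12-week-DB, Mif and Prf1 under 15%.

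Members also differed among themselves in depth and in the markers that let them in. Their UMIs ran from 2766 to 9821 in WT and 1301 to 21406 in DB at 12 weeks, and from 3145 to 22914 in WT and 1012 to 14782 in DB at 21 weeks. Both Fermt2 and Col27a1 were detected in 20 of 25, 51 of 71, 6 of 12 and 15 of 24. Trat1 was present in 87.5 to 100% of members and Cd7 in 83.3 to 96.0%. Cd7 stood at 1608, 840.4, 998 and 831 CPM and Trat1 at 1458, 1004, 1090.4 and 669 CPM, highest in 12-week-WT for both, and these levels were fixed in part by the rule.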

How the data were processed

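The authors sorted CD45+ cells, made 10x 3′ v3 libraries and deposited whole-number UMI counts per gene and barcode, filtered to cells, for 4 libraries on mm10; the submitters' processing notes name Cell Ranger 5.0.0, and the file headers give 5.0.0 for the 12-week and 6.0.0 for the 21-week libraries. From these deposited counts, barcodes were kept and gated as the report describes. No doublet was removed in the main results; Scrublet (in scanpy 1.11.5) marked the highest scores at 0.8% per 1000 barcodes for an alternative. Sums per class and library were tested in R 4.3.3 with edgeR 4.0.16 (TMM, filterByExpr, glmQLFit and glmQLFTest, library as a block, Benjamini-Hochberg over all genes tested, threshold 0.05); the log2 differences are from that fit and the CPM values are UMIs per 1000000 of the sum. DESeq2 1.42.0 was an alternative. On simulated counts with 8396 genes, the test of DETC against dermal γδ T cells recovered 40% of 2-fold and 99% of 4-fold changes, with 2 false calls. The changed genes were drawn from those with at least 50 CPM, at a fixed dispersion of 0.05. These figures therefore do not cover genes of lower level or genes carried by single cells. Conditions, with 1 library each, were compared by ratios of summed UMIs with exact binomial 95% intervals, for genes with at least 50 UMIs over the pair. Intervals and the floor of 3 counts cover counting error only. The libraries pair the classes by construction, since the 4 classes of a library come from the same pooled mice.

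Named genes were taken from all genes of 19 lists, the 10 largest called differences each way per class contrast (at least 50 CPM, same direction in every library) and the 10 largest ratios each way per condition contrast (at least 100 CPM in the higher library). A few items are not reported here. The members and lists were chosen with earlier results of these data known. Sequences came from RefSeq and GENCODE vM21, computed with Python 3.11.15.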

Additional observations from a re-analysis of the deposited data

Results flagged for a closer look

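Among 625 genes with enough UMIs at both ages, 6 went past 2-fold in opposite directions between DB and WT at 12 and at 21 weeks. With 1 library per condition the difference between the ages was not tested. The log2 ratios of DB against WT at 12 and 21 weeks were 1.49 and -8.75 for Cd74, 1.50 and -8.26 for H2-Aa, 1.78 and -6.70 for H2-Ab1, 1.80 and -8.14 for H2-Eb1, 2.02 and -3.08 for Cst3, and -1.01 and 1.06 for AY036118. The first 5 are genes of antigen-presenting cells. In 21-week-WT a single member, called a doublet, held 757 of 898 Cd74 UMIs, and in 12-week-DB 2 members held 86.0% of the UMIs of 5 markers of type 2 conventional dendritic cells.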

How the results depend on the processing

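Genes that passed the test between classes (1639 against dermal γδ T cells, 2136 against αβ T cells and 1981 against NK cells) came to 1044, 1700 and 1541 without the library as a replicate block. The labels give no replicate number beyond 1, and the block pairs classes taken from the same library. Leaving out one library in turn gave 862 to 1378 against dermal γδ T cells (862 without 12-week-WT, 1036 without 21-week-DB), 1310 to 2040 against αβ T cells and 1304 to 1879 against NK cells, and the lowest count in both of the latter came without 12-week-DB. Against NK cells the count was 1175 in a fit of those classes alone and 1315 with cells thinned to a common number of UMIs. Of alternatives chosen after seeing the data, dermal γδ T cells without a UMI of Fermt2 or Col27a1 gave 2518, and dropping the limit on Cd163l1 gave 4941, 4564 and 3584. Of 155 named calls, DESeq2 kept 153, the fit without the block 143 and the fit without 12-week-WT 132, and none reversed under any alternative.

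With the libraries in the order used above, the share of kept cells that were members was 2.18%, 7.63%, 0.770% and 1.90% without the limit on Cd163l1 and 0.0949%, 0.137%, 0.0275% and 0.0689% by Tcrg-V5 with Trdc, and the share of Cd3e-positive cells was 2.79%, 3.99%, 0.660% and 1.02%. Thinned cells gave 1.08% in 12-week-WT, 2.54% in 12-week-DB and 0.704% in 21-week-DB. Thinned members had Tcrg-V5 in 7.55% of 12-week-WT and 7.84% of 21-week-DB, and Trac in 6.49% of 12-week-DB. Without the limit on Cd163l1, Trdc was in 98.4% of 12-week-DB, and Trdv4 in 83.2% of 12-week-DB and 93.9% of 21-week-DB. In 21-week-WT, at most 5% mitochondrial UMIs, and likewise a minimum of 2 UMIs of Fermt2 and Col27a1 together, gave Trdc 100%, Trdv4 100% and Trac 0%.

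Genes past 2-fold between libraries numbered 133 for diabetic against wild-type at 12 weeks, 154 at 21 weeks, 95 between ages in wild-type and 285 between ages in diabetic mice. Without the limit on Cd163l1 these were 338, 403, 234 and 1029. Without each gene's top cell the 12-week count was 207, in a comparison that leans toward the library with more members. Thinning gave 88 at 21 weeks and 35 between wild-type ages, and at most 5% mitochondrial UMIs gave 57 for the latter. Median-ratio scaling split the 12-week genes into 82 higher and 42 lower and the wild-type age genes into 35 and 61, and totals without mitochondrial and ribosomal genes split the diabetic age genes into 104 and 173. Named genes that changed sign on the log2 scale were Olfr655 (−2.05 without its top cell), Dync1i2 (−0.29 thinned, −0.11 without the limit on Cd163l1) and Lyz2 (0.075 without its top cell) at 21 weeks, Mcpt2 (0.35 without its top cell) at 12 weeks, and Crem (0.17 without the limit on Cd163l1) between wild-type ages. Nearly all UMIs of Olfr655 in 21-week-DB and of Mcpt2 in 12-week-WT lay in the cell left out. Their signs without it therefore rest on almost no UMIs. A count of 0 enters such a ratio as the floor of 3 UMIs, so such a value is a bound. The cause was not tested for any of these changes of sign.

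Each condition was 1 library of pooled mice, so no comparison of conditions has replicate error, and the class test measures spread over 4 different conditions. The members of a library were few, and 1 cell held most UMIs of some genes.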
